A study of Mus musculus with 12 samples.

Results

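The addition of inulin to LPS-stimulated RAW 264.7 cells was examined by setting the 3 arrays of cells given inulin with LPS against the 3 arrays of cells given LPS alone, which are 6 of the 12 arrays of the study. RAW 264.7 is a mouse macrophage-like cell line. All cells were cultured for 6 h at 37 °C in 5% CO2 with LPS at 500 ng/mL, and the inulin cells also received inulin at 500 µg/mL before the LPS. The other 6 arrays came from cells given TsSP, a helminth product per the series' design text, at 50 µg/mL with LPS, or TsSP and inulin with LPS at those doses, with 3 arrays each. No array came from cells without LPS, so the comparison shows what inulin adds to the LPS response and not what LPS itself did. Whether replicate arrays stem from separate cultures is not stated in the labels. P-values, intervals and bounds therefore rest on the spread between these arrays, which may be technical. All 19505 genes with a name on the array were tested, each through 1 probe set, and bounds on the change are given for 5212 well expressed genes and for a panel of macrophage genes, of which 201 of 220 were measured and 163 were well expressed.

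Inulin is a fructose polymer made by plants that mammalian enzymes do not digest. In the gut it is fermented by bacteria to short-chain fatty acids, which host cells sense through receptors such as Ffar2, Ffar3 and Hcar2. LPS, a component of the outer membrane of Gram-negative bacteria, is handed by Cd14 to the complex of Tlr4 and Ly96 (MD-2), which signals through the adaptors Myd88 and Ticam1 to NF-kB, MAP kinases and interferon regulatory factors.

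The cells carried the markers of their label. All 8 measured macrophage markers, Spi1, Csf1r, Itgam, Adgre1, Lyz2, Fcgr3, Cd14 and Msr1, lay above background on all 6 arrays, with mean log2 signals from 13.47 to 17.79. Their summed signal was 19.02 to 19.09 on the log2 scale with LPS and 19.07 to 19.14 with inulin. None of 6 lymphocyte and 6 neutrophil and mast cell markers lay above background on any of the 6 arrays, and of 5 dendritic cell markers only Ccr7 did, at a mean of 7.09. Of 5 fibroblast and epithelial markers, 4 lay above background on none of the 6 arrays. The first LPS array stood slightly apart: its median over all probe sets was 5.16 against 5.23 to 5.28 on the other 5, and its median background probe set was 4.99 against 5.33 to 5.43. Whole-array correlations were 0.993 to 0.994 among the LPS arrays, 0.995 among the inulin arrays and 0.993 to 0.995 between the groups.

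Inulin changed no gene past the threshold. In limma, 0 of 19505 genes (0%) had an adjusted p under 0.05, the smallest adjusted p was 0.332, and 1143 genes (5.86%) had an unadjusted p under 0.05. In the same model TsSP changed 3525 genes (18.1%), 2144 higher and 1381 lower, against the same 3 LPS arrays. A missing call does not show that a gene stayed level, so the size of change that the data still allow was measured for each gene. The bound used here is the end of the 95% confidence interval of the log2 difference that lies farther from 0, written as a fold, and a gene was counted as within 1.5-fold when a pair of one-sided limma tests placed its difference inside that limit at an adjusted p under 0.05. The adjusted tests and the bound are separate measures, so a gene placed within a limit can have a bound beyond it. Over all genes, 9215 (47.2%) were placed within 1.5-fold and 18404 (94.4%) within 2-fold, but these counts include genes below background, whose signal says nothing about their RNA. The 1.5-fold count over all genes rests on the number of arrays: without the third inulin array it was 5977 and without the third LPS array 6048.

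Among well expressed genes the bounds were narrow. Well expressed means a mean log2 signal of at least 10 over the 12 arrays and a signal above the brightest background probe set on all 6 arrays of the comparison. Of 5212 such genes, 4900 (94%) were placed within 1.5-fold and 5210 within 2-fold. Leaving out any 1 of the 6 arrays lowered the 1.5-fold count to between 4125 (without the third LPS array) and 4523 (without the first), and a fit to the 6 arrays alone gave 4581. The median bound was 1.29-fold, with 1.21-fold at the 10th percentile, 1.45-fold at the 90th, and a range from 1.16-fold to 2.2-fold. The measured differences ran from -0.14 at the 5th percentile to 0.23 at the 95th, on the log2 scale, about a median of 0.04. Only 1 of these genes, Ctps, differed by more than 1.5-fold and 0 by more than 2-fold, whereas with TsSP 1224 of the same genes differed by more than 1.5-fold and 453 by more than 2-fold, with 1944 called. Both comparisons use the same LPS arrays.

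The well expressed genes not placed within 2-fold were Ctps and Zfp825. Rnase6 and Foxr2 were placed within 2-fold by the adjusted tests, though their bounds were 2.14-fold and 2.11-fold. Ctps encodes CTP synthase, which makes a pyrimidine nucleotide for RNA and phospholipids. Its log2 signals were 9.77, 9.81 and 10.01 with LPS and 10.55, 10.72 and 10.26 with inulin. The groups did not overlap, the difference was 0.65 (SE 0.22, n = 3 per group), and the limma adjusted p was 0.717. Zfp825, a zinc finger gene, had 10.00, 10.97 and 10.93 with LPS against 11.23, 11.18 and 11.08 with inulin. Here the first LPS array lay well below the other two, all 3 inulin arrays lay above the LPS arrays, and the bound was 2.15-fold.

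**Figure D1:**
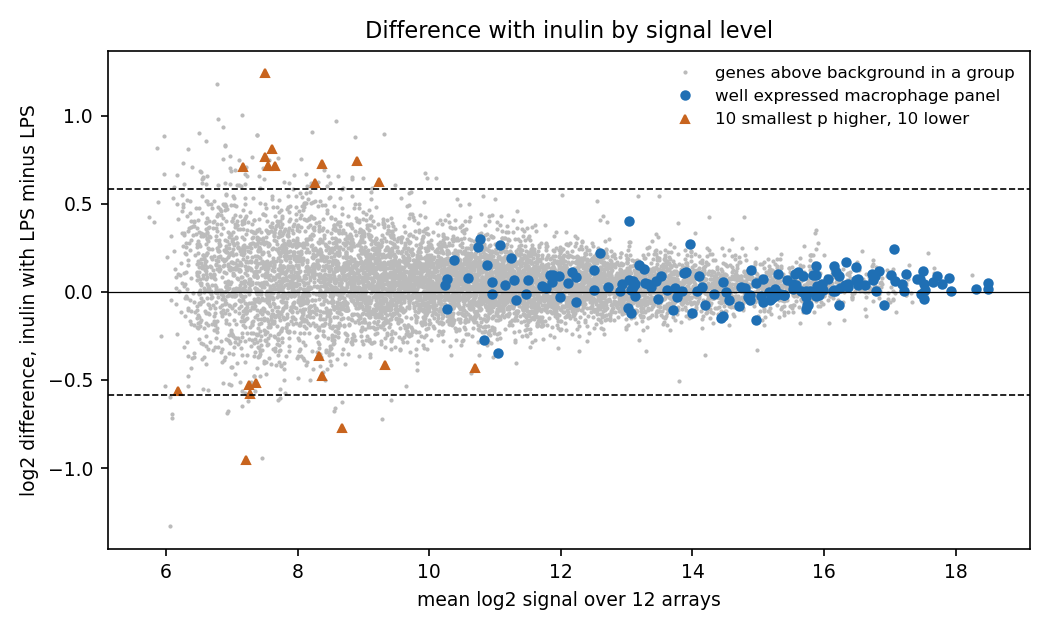
Log2 difference of inulin with LPS minus LPS against the mean log2 signal over 12 arrays, for genes above background in at least 1 of these groups (grey), well expressed panel genes (blue circles) and the 10 genes with the smallest p in each direction (orange triangles). Dashed lines mark 1.5-fold; the differences narrow as signal rises, and all but 1 of the triangles lie below a level of 10.

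How tightly a gene could be bounded depended on its signal. For genes above background on all 6 arrays, the median bound was 1.57-fold at a mean signal of 6 to 8 (1058 genes), 1.45-fold at 8 to 10 (2170), 1.34-fold at 10 to 12 (2414), 1.28-fold at 12 to 14 (1760) and 1.23-fold from 14 upward (1038). The share placed within 1.5-fold was 34.1%, 61.1%, 89%, 97.8% and 99.2% in the same order. Most genes at 6 to 8 were thus not placed within 1.5-fold, whereas few from 12 upward were not.

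**Figure D2:**
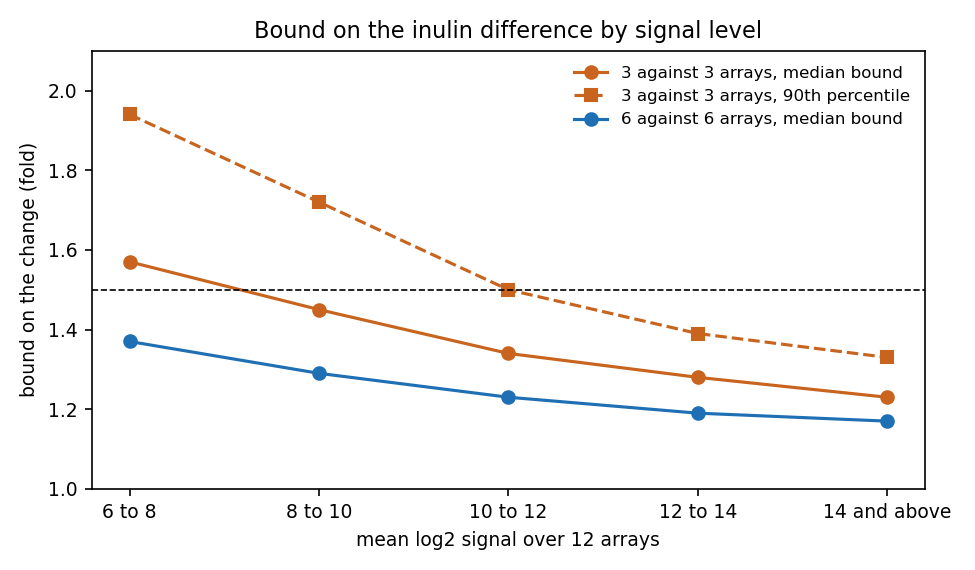
Bound on the inulin difference, in fold, by mean log2 signal over 12 arrays, for genes above background on all 6 arrays. Orange lines show the median and the 90th percentile for 3 against 3 arrays and the blue line the median for 6 against 6 arrays; the orange median falls from 1.57-fold to 1.23-fold and the blue one from 1.37-fold to 1.17-fold, and the dashed line marks 1.5-fold.

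The macrophage panel holds genes in 16 roles, from LPS receptors to housekeeping genes. None of its 201 measured genes had a limma adjusted p under 0.05, against 0% of all genes, and 2 had an unadjusted p under 0.05, H2-D1 and Cd36, against 5.86% of all genes. Of the 163 well expressed members, 158 (96.9%) were placed within 1.5-fold, beside 94% of all well expressed genes, and all 163 within 2-fold. Their differences ran from -0.35 for Il19 to 0.41 for H2-D1 with a median of 0.04, beside 0.04 over all well expressed genes. The median bound was 1.24-fold. The 3 inulin arrays all lay above the 3 LPS arrays for 11 of the 201 members (5.47%), beside 6.51% of all genes, and all below for 2 members (0.995%), beside 3.66% of all genes. In the TsSP comparison, which uses the same LPS arrays, 104 of the 163 were called, beside 1944 of all 5212 well expressed genes.

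Genes that sense LPS lay close together in both groups. All 7 well expressed members of 10 measured were placed within 1.5-fold, with differences from -0.08 (Myd88) to 0.15 (Cd14). Tlr4, the signalling receptor, had log2 signals of 11.66, 11.97 and 11.65 with LPS and 11.90, 11.76 and 11.72 with inulin. These overlap, and the bound was 1.24-fold. Cd14, the co-receptor that passes LPS on, had 15.83, 15.72 and 15.83 with LPS and 15.94, 15.89 and 15.99 with inulin. All 3 inulin arrays lay above all 3 LPS arrays for Cd14, by 0.15 in the mean (SE 0.10, limma adjusted p = 0.913), and the bound was 1.29-fold. Ly96, which completes the Tlr4 complex, showed the same order of arrays with a difference of 0.10 and a bound of 1.27-fold.

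Receptors for other microbial and dietary molecules showed the same picture. Of 12 measured, 7 were well expressed and all 7 were placed within 1.5-fold, from 0.00 for the inflammasome sensor Nlrp3 to 0.11 for Tlr2, the lipopeptide receptor. Tlr2 signals were 16.47, 16.41 and 16.36 with LPS and 16.60, 16.49 and 16.48 with inulin, so the groups did not overlap, and the bound was 1.27-fold. Hcar2, a receptor for butyrate and niacin, read 14.66, 14.56 and 14.53 with LPS against 14.67, 14.67 and 14.66 with inulin. Its groups also did not overlap, though the highest LPS array and the lowest inulin array both round to 14.66, and the bound was 1.26-fold. Ffar2 and Ffar3, receptors for short-chain fatty acids, and Mrc1, the mannose receptor, lay below background, so nothing is given on their change.

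Signalling and transcription factor genes downstream of Tlr4 were bounded nearly as well. All 15 well expressed NF-kB and MAP kinase genes of 17 measured were placed within 1.5-fold, from -0.15 for Nfkbiz, an inducible nuclear cofactor of NF-kB, to 0.18 for Fos, an AP-1 subunit. Nfkbia, which encodes the inhibitor IkBα and is itself switched on by NF-kB, read 15.82, 15.62 and 15.75 with LPS and 15.80, 15.67 and 15.85 with inulin. Its groups overlap and its bound was 1.22-fold. Tnfaip3, which encodes the feedback inhibitor A20, had a bound of 1.2-fold, and the widest bound of the role was that of Fos, at 1.48-fold. Fos averaged 9.39 over the 6 arrays compared and reached the level rule only through the arrays with TsSP, as did Irf8 (9.92) and Bnip3 (9.16) in other roles.

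Among the inflammatory cytokines, Tnf, Il6 and Il1a had narrow bounds. Tnf, which encodes a cytokine released early after LPS, had log2 signals of 17.24, 17.36 and 17.29 with LPS and 17.31, 17.36 and 17.35 with inulin. The arrays overlap, the difference was 0.04 (95% interval -0.21 to 0.30), and the bound was 1.23-fold. Il6, whose product drives the acute phase response, read 16.36, 16.16 and 16.20 with LPS and 16.28, 16.14 and 16.30 with inulin. Its interval ran from -0.25 to 0.25 and its bound was 1.19-fold. Il1b, the precursor of interleukin 1β, read 16.08, 15.87 and 16.07 with LPS and 16.01, 16.25 and 16.10 with inulin, with a bound of 1.32-fold; Il1a was bounded at 1.18-fold. Beside these, in the comparison of TsSP with the same LPS arrays, Tnf differed by -2.61 and Il6 by -2.10. Of the 8 well expressed cytokines of 14 measured, 7 were placed within 1.5-fold. The exception was Tnfsf9, the ligand of the costimulatory receptor 4-1BB, with 10.60, 11.02 and 10.77 with LPS against 11.23, 11.06 and 11.00 with inulin, which overlap and gave a bound of 1.55-fold.

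Tnf and Il6 are bright on these arrays, and their probe sets differed by more than 2 log2 units with TsSP, so the signal was able to move downward. Whether it had room to move upward was not tested. Upward room was not tested either for other genes as bright, such as Cxcl10, Spi1 and Acod1.

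**Figure D3:**
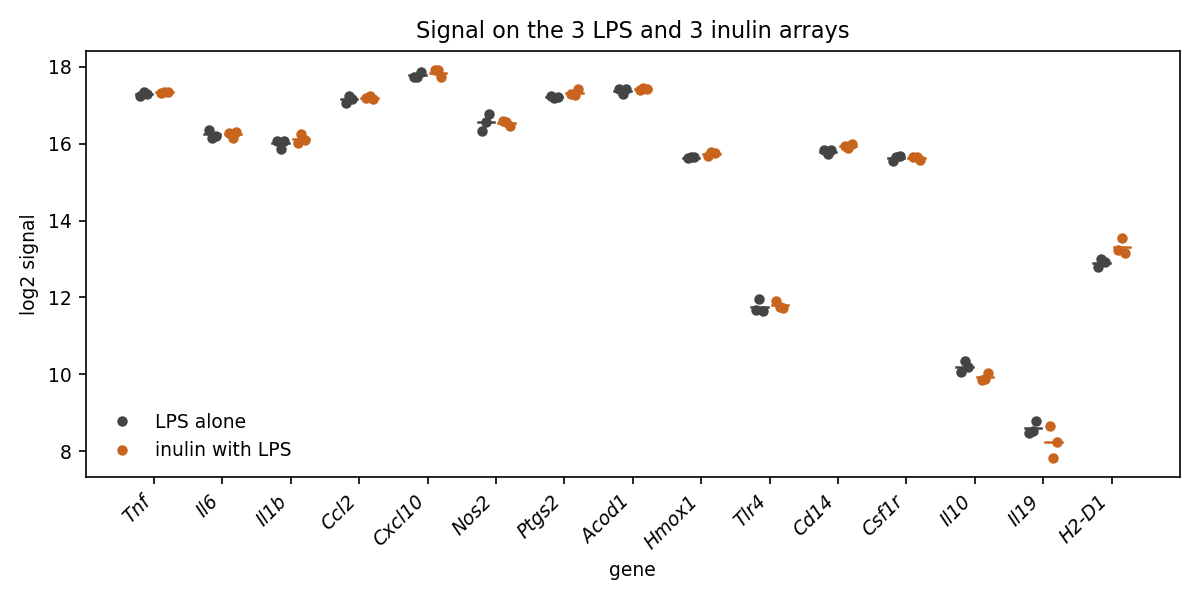
Log2 signal of 15 panel genes on the 3 arrays with LPS alone (dark) and the 3 arrays with inulin and LPS (orange); each point is 1 array and each short line a group mean. Tnf, Il6, Il1b, Ccl2, Cxcl10, Nos2, Acod1, Tlr4, Csf1r and Il19 overlap between the groups, whereas Ptgs2, Hmox1, Cd14 and H2-D1 lie higher and Il10 lower on all 3 inulin arrays by 0.41 or less.

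All 10 well expressed chemokines of 13 measured were placed within 1.5-fold. Ccl2, which draws monocytes, read 17.06, 17.24 and 17.17 with LPS and 17.18, 17.24 and 17.16 with inulin. The groups overlap, the bound was 1.2-fold, and TsSP differed from the same LPS arrays by -1.69. Cxcl10, an interferon-induced attractant of T cells, read 17.74, 17.73 and 17.88 with LPS and 17.91, 17.91 and 17.73 with inulin, with a bound of 1.23-fold. Ccl3, Ccl4 and Ccl5, which attract leukocytes, were bounded at 1.19-fold, 1.22-fold and 1.18-fold. The chemokine differences ran from -0.12 for Ccl7 to 0.17 for Cxcl2, a neutrophil attractant, and the widest bound was 1.48-fold for Ccl22.

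Anti-inflammatory regulators held the lowest difference among well expressed panel genes. Il10, which encodes the cytokine that restrains macrophage activation, had log2 signals of 10.06, 10.35 and 10.18 with LPS and 9.86, 9.89 and 10.03 with inulin. All 3 inulin arrays lay below all 3 LPS arrays, but the highest inulin and the lowest LPS array were nearly equal. The difference was -0.27 (SE 0.13, n = 3 per group, limma adjusted p = 0.85). Il10 was placed within 1.5-fold, and its bound was 1.46-fold. In the presence of TsSP the addition of inulin gave a difference of -0.03 for Il10. Il19, a cytokine of the interleukin 10 family, read 8.47, 8.53 and 8.78 with LPS and 8.66, 7.83 and 8.25 with inulin, which overlap, with a bound of 1.67-fold. Il19 counts as well expressed only because of the TsSP arrays, where it lay 5.08 above the LPS arrays. The other 9 well expressed members of 15 measured, among them Socs3, Dusp1, Zfp36 and Il1rn, which limit cytokine signalling, kinase activity, mRNA life and interleukin 1 action, were placed within 1.5-fold with differences from -0.12 (Il10ra) to 0.07 (Tgfb1).

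Effector enzymes of the activated macrophage were all bounded. All 9 well expressed members of 12 measured were placed within 1.5-fold. Nos2, the inducible nitric oxide synthase, read 16.34, 16.56 and 16.78 with LPS and 16.58, 16.57 and 16.47 with inulin. The inulin arrays fell inside the range of the LPS arrays, and the bound was 1.31-fold. Acod1, which makes itaconate, read 17.43, 17.28 and 17.43 with LPS and 17.40, 17.44 and 17.44 with inulin, with a bound of 1.2-fold. Ptgs2, the inducible cyclooxygenase, read 17.24, 17.18 and 17.21 with LPS and 17.29, 17.26 and 17.43 with inulin. Its groups did not overlap, yet the mean difference was 0.12 and the bound 1.27-fold. Hmox1, heme oxygenase 1, likewise lay higher on every inulin array (15.62, 15.65 and 15.65 against 15.69, 15.78 and 15.76), by 0.10, with a bound of 1.25-fold; with TsSP it differed from the same LPS arrays by 2.14. Ptges, the prostaglandin E synthase that works with Ptgs2, was not well expressed by the level rule: it read 9.52, 9.43 and 9.53 with LPS and 9.78, 9.87 and 9.75 with inulin, with no overlap and a difference of 0.31 (limma adjusted p = 0.873).

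Interferon-response genes, which stand downstream of Ticam1, were all placed within 1.5-fold, 12 of 12 well expressed members of 13 measured. Isg15, a ubiquitin-like modifier, read 14.26, 14.03 and 14.20 with LPS and 14.19, 14.27 and 14.35 with inulin, with a bound of 1.27-fold. The widest of the role was Irf7, the factor that amplifies type I interferon, at 17.16, 16.91 and 17.34 with LPS and 17.39, 17.32 and 17.43 with inulin. Its groups overlap, the difference was 0.24, and the bound was 1.47-fold. Ifit1, Ifit3, Mx1 and Stat2 were bounded at 1.2-fold, 1.19-fold, 1.21-fold and 1.2-fold.

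Antigen presentation held the highest difference among well expressed panel genes. H2-D1, a classical MHC class I heavy chain gene, had log2 signals of 12.80, 12.99 and 12.93 with LPS and 13.24, 13.53 and 13.16 with inulin. All 3 inulin arrays lay above all 3 LPS arrays, and the difference was 0.41 (SE 0.13, 95% interval 0.13 to 0.68, n = 3 per group). The limma adjusted p was 0.66, and the gene was not placed within 1.5-fold (bound 1.6-fold). With TsSP present, H2-D1 read 12.83, 12.83 and 12.91 without inulin and 13.19, 13.01 and 13.04 with it, again with no overlap and a difference of 0.22 (limma adjusted p = 0.982). H2-K1, another classical class I heavy chain gene, differed by -0.02 and B2m, the light chain shared by both, by 0.12. Class I heavy chain genes are close copies of each other, so their probe sets may read each other's transcripts, and the H2-D1 value is uncertain to that extent. The other 11 of 12 members, all well expressed, were placed within 1.5-fold, among them the costimulatory genes Cd40, Cd80 and Cd86 at bounds of 1.21-fold, 1.47-fold and 1.19-fold, and Cd274, which encodes PD-L1, at 1.21-fold.

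Genes of macrophage identity and phagocytosis were placed within 1.5-fold in 16 of 17 well expressed cases, of 20 measured. Spi1, which encodes the lineage factor PU.1, read 17.65, 17.69 and 17.73 with LPS and 17.67, 17.67 and 17.85 with inulin. Csf1r, the receptor for macrophage colony-stimulating factor, read 15.55, 15.66 and 15.69 with LPS and 15.64, 15.66 and 15.57 with inulin. Both overlap between the groups, with bounds of 1.2-fold and 1.18-fold. Cebpb, a factor that acts with NF-kB on LPS targets, was the exception at 1.53-fold: it read 13.55, 14.18 and 14.06 with LPS and 14.30, 14.23 and 14.06 with inulin, and only the first LPS array was low. Without that array the Cebpb difference was 0.08 instead of 0.27 and its bound 1.28-fold. Cd36, a scavenger receptor, had an unadjusted p under 0.05 but lay below background on all 6 arrays.

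The remaining roles differed as little. All 9 well expressed lysosomal genes were placed within 1.5-fold, from -0.03 for the protease gene Ctsl to 0.15 for the proton pump subunit Atp6v0d1. The 9 sterol and lipid genes ran from -0.16 for Hmgcs1, an early enzyme of cholesterol synthesis, to 0.22 for Insig1, which restrains that pathway, and all were placed within 1.5-fold. The same held for 10 glycolysis and oxygen-sensing genes, from -0.03 for the oxygen sensor Egln1 to 0.19 for Bnip3, a hypoxia target that met the level rule only through TsSP, and for 11 stress genes, from 0.01 for Xbp1 to 0.14 for Gclm, which serves glutathione synthesis. Of 6 proliferation genes, 5 were placed within 1.5-fold and Top2a, the replication topoisomerase, was not: its arrays read 10.98, 11.04 and 11.29 with LPS and 11.15, 11.45 and 11.50 with inulin, which overlap, with a bound of 1.53-fold. The 10 housekeeping genes, which give the scale of differences in genes of steady expression, ran from -0.09 (Sdha) to 0.10 (Ppia) with a median bound of 1.21-fold, the same as that of the cytokines and of the chemokines.

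**Figure D4:**
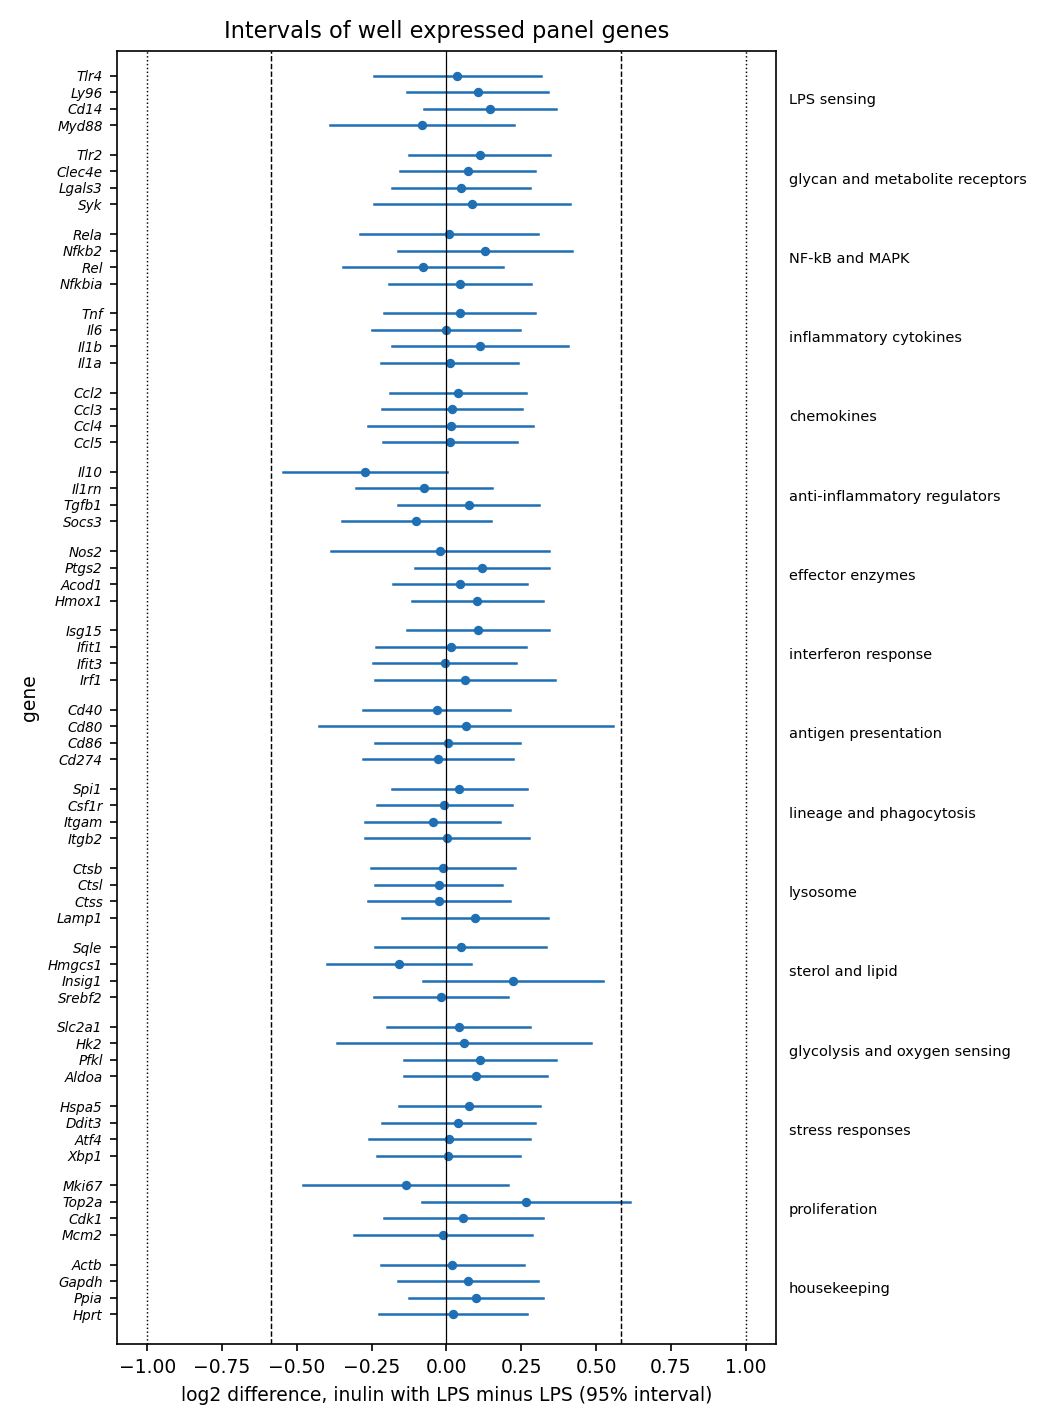
Log2 difference of inulin with LPS minus LPS with its 95% interval for the first 4 well expressed panel genes of each of the 16 roles, in the order of the panel. Dashed lines mark 1.5-fold and dotted lines 2-fold; only the interval of Top2a crosses a dashed line, and the upper end of the Il10 interval lies close to 0.

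Some panel genes could not be bounded. Vegfa, an angiogenic factor induced by low oxygen, read 8.05, 6.69 and 8.75 with LPS and 7.02, 6.17 and 7.48 with inulin, and its bound was 5.31-fold. Cxcl3, a neutrophil chemokine, read 8.74, 7.02 and 6.41 with LPS and 7.26, 6.70 and 6.66 with inulin, with a bound of 3.02-fold. Replicate arrays of one group differed by more than 2 log2 units in both genes. Pdk1, a kinase that diverts pyruvate from mitochondria, read 6.70, 5.31 and 6.54 with LPS and 6.46, 7.24 and 6.92 with inulin, with a bound of 2.63-fold. The 95% intervals of the log2 difference ran from -2.41 to 0.52 for Vegfa, from -1.59 to 0.56 for Cxcl3 and from -0.01 to 1.39 for Pdk1, so each allows a large change in 1 direction, or little change. Pdk1 lay below background on 1 LPS array and Vegfa on 1 inulin array, where the signal says nothing about their RNA.

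The level rule averages over 12 arrays and so leaves out genes that TsSP lowered. Il27, a cytokine gene with a mean of 11.98 over the 6 arrays compared, was bounded at 1.26-fold, and Cxcl9, an interferon-γ-induced chemokine at 11.64, at 1.32-fold. When level was instead taken from the 6 arrays, a choice made after the data were seen, 5173 genes were well expressed and 4861 of them (94%) were placed within 1.5-fold, with 160 of 165 panel genes.

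The genes with the smallest p-values were dim ones. The 10 that led among higher genes had limma adjusted p-values from 0.332 to 0.486, differences from 0.62 to 1.24 and mean signals from 7.18 to 9.24, and none was well expressed. Ube2t, a ubiquitin-conjugating enzyme of DNA crosslink repair, led them at 6.91, 6.38 and 6.66 with LPS against 8.01, 7.87 and 7.79 with inulin. The arrays lay far apart for Ube2t, with a difference of 1.24 (SE 0.18, adjusted p = 0.332), but in the presence of TsSP the addition of inulin gave -0.26. The others were Sult1c1 (0.73), Efcab7 (0.81), Zbtb37 (0.71), Ntpcr (0.77), Nicn1 (0.74), Ipmk (0.62), Lipn (0.72), Man2c1 (0.72) and Nle1 (0.63). Only Efcab7 and Nle1 of the 10 differed in the same direction when inulin was added to TsSP, and neither had an unadjusted p under 0.05 there. Ntpcr differed the other way there, by -0.41 (limma unadjusted p = 0.0175, adjusted p = 0.978). TsSP without inulin also lay above the same LPS arrays for most of the list, among them Ube2t (1.23), Ntpcr (1.69) and Nicn1 (1.36). It lay below them for Sult1c1 (-0.31) and Nle1 (-0.57).

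Among lower genes the 10 with the smallest p had limma adjusted p-values from 0.429 to 0.66 and differences from -0.95 to -0.36. Car5b, a mitochondrial carbonic anhydrase, led them at 7.85, 7.01 and 7.36 with LPS against 6.42, 6.32 and 6.63 with inulin. The groups did not overlap for Car5b, with a difference of -0.95 (SE 0.20, adjusted p = 0.429). The others were Sh3tc1 (-0.52), Ggct (-0.77), Nfxl1 (-0.58), Mnd1 (-0.53), Pigv (-0.43), Mmaa, Phf19 (-0.41), Clcn5 (-0.48) and Acads (-0.36). Pigv, which adds a mannose in the synthesis of GPI anchors, was the only well expressed gene of the 20, and Mmaa lay below background on all 3 inulin arrays, so the size of its difference is not given. In the presence of TsSP, 8 of the 10 also differed downward, in a comparison that leaned downward. Of its genes above background with an unadjusted limma p under 0.05, 93 were higher and 238 lower. Mmaa, 1 of the 8 downward genes, also lay below background on all 3 arrays with inulin and TsSP. None of the other downward genes had an unadjusted p under 0.05 there.

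Inulin was also added to cells that received TsSP, a comparison of 6 other arrays. There, 0 of 19505 genes (0%) had a limma adjusted p under 0.05 and 971 (4.98%) an unadjusted p under 0.05. The difference between the 2 inulin comparisons, tested as an interaction, was called for 0 genes (0%), with a smallest adjusted p of 0.646 and 1089 genes at an unadjusted p under 0.05. For this interaction 0 of 19505 genes were placed within 1.5-fold and 13918 within 2-fold. The missing calls therefore do not show that inulin made the same difference with and without TsSP. Across the 5212 well expressed genes the 2 sets of inulin differences had a Pearson r of 0.19 and a Spearman rho of 0.18. This is a description across genes, which are not independent replicates, between groups that share no array.

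**Figure D5:**
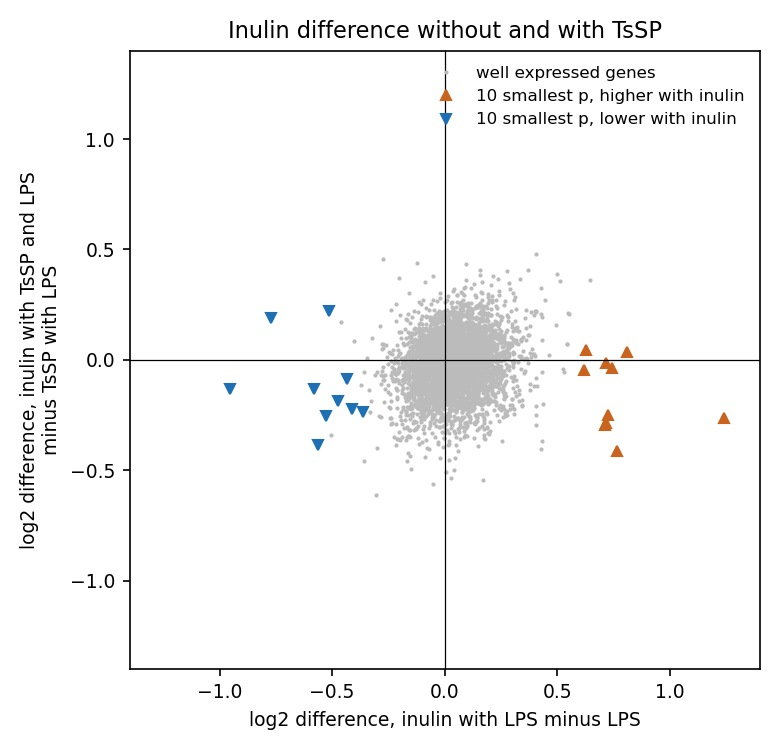
Log2 difference made by inulin with LPS alone (x axis) and with TsSP and LPS (y axis), for well expressed genes (grey) and the 10 genes with the smallest p in each direction of the first comparison (orange up, blue down). The grey cloud is centred near 0 on both axes; 2 of 10 orange genes lie above 0 and 8 of 10 blue genes below 0 on the y axis.

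The 2 inulin comparisons were then averaged, which sets 6 arrays with inulin against 6 without. Still 0 genes (0%) had a limma adjusted p under 0.05, 1047 (5.37%) had an unadjusted p under 0.05, and the smallest adjusted p was 0.528. The bounds were narrower, but they hold for the average and not for the difference without TsSP. On the average, 16739 of all genes (85.8%) and 5200 of 5212 well expressed genes (99.8%) were placed within 1.5-fold. The median bound was 1.2-fold among the latter. Being so placed does not mean a bound under 1.5-fold: Bhlhe40, a well expressed gene, was placed with an averaged bound of 1.53-fold. Opposite differences cancel in an average: Rgs1 differed by 0.43 without TsSP and by -0.37 with it. Its bound was 1.3-fold on the average and 1.89-fold without TsSP. All 163 well expressed panel genes were placed within 1.5-fold on the average. The widest of their averaged bounds was that of H2-D1 at 1.42-fold (difference 0.31, limma adjusted p = 0.863). Socs1, which encodes an inhibitor of JAK kinases and is a panel gene below the level rule, gave the smallest averaged p of the panel. It read 9.65, 9.79 and 9.84 with LPS, 9.72, 9.26 and 9.13 with inulin, 8.31, 7.81 and 7.77 with TsSP, and 7.34, 6.93 and 6.43 with both. The Socs1 difference was -0.39 (SE 0.24) without TsSP, where the arrays overlap, and -1.07 with TsSP, where they do not, and its average was -0.73 (limma adjusted p = 0.834). Ccl7, a monocyte chemokine, averaged -0.24 and Ptges 0.32 (limma adjusted p = 0.881 and 0.881). H2-D1, Socs1, Ccl7 and Ptges were the 4 panel members with an unadjusted averaged p under 0.05, and none passed adjustment over all genes.

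The small differences leaned upward, less so without the first LPS array. Of the genes above background with an unadjusted p under 0.05, 300 were higher and 64 lower with inulin. Without the first LPS array the counts were 237 and 116, and the median difference over all genes went from 0.04 to -0.0011. In the presence of TsSP the lean was the other way, with 93 higher and 238 lower.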

How the data were processed

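RNA was purified on RNeasy columns and biotin-labelled for Affymetrix mouse arrays, per the labels' protocols. The authors deposited 1 log value for each probe set on each array; base 2 was inferred from the range of the values. Which background correction, normalization and software they used is not given in the sources used here, and any compression by them would carry into the log2 differences. The deposited log2 values were used unchanged. Precision is limited by the 3 arrays per group.

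Of 28846 probe sets, the array's annotation gives 1 gene symbol for 19572 and several for 0. All 19572 were matched by gene number to RefSeq (GRCm38.p6, names only). For 55 genes with several probe sets the one with the highest mean stood for the gene, which left 19505 genes. Above background means brighter than the brightest of 23 background probe sets: 8718 genes were so on all 3 arrays of at least 1 group, and 8441 on all 6.

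One limma 3.58.1 model (lmFit and eBayes, R 4.3.3) held the 4 group means on 12 arrays, with 8 residual and 3.35 prior degrees of freedom. It gave 5 contrasts: inulin against LPS, inulin added to TsSP, their interaction, their average, and TsSP against LPS. P-values are two-sided and Benjamini-Hochberg adjusted over all 19505 genes, with a threshold of 0.05. Equivalence within 1.5-fold or 2-fold used a pair of one-sided moderated tests, adjusted likewise. The code was tested on simulated data. Plots used matplotlib 3.10.9.

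Named genes are panel members, the 10 genes with the smallest p in each direction above background (predicted, small RNA and chemosensory genes left out), and well expressed genes not placed within 2-fold. Rnase6, Foxr2, Bhlhe40 and Rgs1 are named besides, as examples picked from the well expressed genes with the widest bounds after the results were seen. The members and lists were chosen with earlier results of these data known. Of the 220 panel genes, 19 are not analysed here. The deviations of same-numbered LPS and inulin arrays had r of 0.01, -0.07 and 0.17, which does not settle whether the numbers mark pairs. The numbers were not used as pairs in the main model. Alternatives covered normalization, filtering, the model, the level rule and leaving out each array.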

Additional observations from a re-analysis of the deposited data

How the results depend on the processing

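No alternative called a gene for inulin against LPS; the smallest adjusted p was 0.0677, with a mean-variance trend in limma, and 1026 to 1320 genes had an unadjusted p under 0.05 when 1 array was left out. The bounds moved more than the calls. Leaving out 1 array placed 5977 to 9151 genes within 1.5-fold, 17410 to 18414 within 2-fold, and gave a median bound among well expressed genes of 0.38 to 0.42 on the log2 scale. The lowest of these counts came without the third inulin array (5977) and without the third LPS array (6048). With the mean-variance trend 7975 of all genes were placed within 1.5-fold, against 9215 in the main fit. Among well expressed genes the trend gave a median bound of 0.31 on the log2 scale, against 0.37. A fit to the 6 arrays alone placed 8195 of all genes within 1.5-fold, with a median bound of 0.42 among well expressed genes. With tests run only on the 9022 genes above background in some group, 8862 were placed within 2-fold, fewer because fewer were tested. Of the 158 panel genes placed within 1.5-fold, 144 were so under all 18 alternatives; among the 14 that were not in some are Il10, Fos, Irf7, Ccl22 and Cd80. A fit to the 6 arrays alone placed 149 panel genes within 1.5-fold. With the replicate number as a block, 0 genes were called, 1158 had an unadjusted p under 0.05 and 9073 were placed within 1.5-fold. Whether the numbers pair the arrays is not known.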
